A study of Rattus norvegicus with 12 samples.

Results

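Chromatin regulators are the proteins that write, erase and read chemical marks on histones or that slide and evict nucleosomes. Their genes are described here as hosts of circular RNAs (circRNAs) in rat liver. A host was counted when its symbol belonged to 1 of 13 families: the lysine demethylases (Kdm), lysine methyltransferases (Kmt, Setd, Nsd, Ehmt and Ash1l), histone deacetylases (Hdac), lysine acetyltransferases (Kat), nucleosome remodellers (Smarc, Chd and Baz) and the Arid and Brd proteins. Entries named by an Ensembl identifier were added where they shared a transcript with such a symbol. This gave 74 of the 6501 hosts in the deposited table, 412 of its 21876 circRNA entries (388 named by symbol and 24 by identifier) and 3970 of its 284534 reads.

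A circRNA forms when the end of an exon is spliced back to the start of the same exon or of an exon upstream, and reads that cross this back-splice junction count it. Long genes with many internal exons, as those of chromatin regulators often are, can give several different circles. The circle is made from the transcript of the host gene, but its level is not the level of the messenger RNA, since the linear and circular products compete for the same transcript and circles are turned over slowly. In liver, histone deacetylases and demethylases are known to act on the genes of glucose and lipid metabolism.

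All rats were wild type Wistar rats made diabetic by a diet with 60% of its calories as fat for 4 weeks and then streptozotocin, which kills the insulin-producing cells of the pancreas, given once into the peritoneum at 35 mg/kg after a 16 h fast. Animals whose fasting glucose stayed above 16.7 mmol/L 3 days later were assigned, matched on body weight, to a sham operation or to sleeve gastrectomy (SG), in which the stomach is cut down to a narrow tube. There were 12 liver libraries, 5 of them from the sham group, 5 from diabetic rats sampled 3 months after SG, and 2 from rats whose diabetes returned after SG, called the relapse group. The time of sampling of the sham and relapse groups is not given in the sources used here, and no group of rats without diabetes was analysed here. Whether the libraries of a group are different animals is not said in the labels, so p-values measure the spread between these libraries, which may be technical.

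The libraries held 18176 to 37229 back-splice reads. Levels are in reads-per-million (RPM) of all back-splice reads of a library and are not divided by length, because a read is counted at a junction. A level of 0 allows up to 3 reads, which is 80.6 RPM in the deepest library and 165 RPM in the shallowest, for counting error only. Values after ± are SDs over the libraries of a group, 5 for sham and SG and 2 for relapse. Of 12 hepatocyte markers 11 had reads, with Ttr at 0, and their sum was 29250 to 40770 RPM in sham, 25300 to 40880 RPM in SG and 22300 to 22540 RPM in relapse libraries. Reads were also found for 3 of 9 Kupffer cell markers (at most 835 RPM in a library, with Clec4f and Cd163 at 0), 6 of 8 endothelial markers (at most 866 RPM, with Lyve1 and Pecam1 at 0), 3 of 8 stellate cell markers (at most 246 RPM, with Lrat and Des at 0) and 2 of 8 lymphocyte and granulocyte markers (at most 110.0 RPM, with Cd3e and Cd79b at 0). None of the 5 cholangiocyte markers and none of the 6 pancreas and gut markers had a read. In liver pieces, fewer cells of a type and fewer circles per cell cannot be told apart.

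Chromatin regulator hosts took 1.38% ± 0.0968 (SD, n = 5) of the back-splice reads in sham, 1.42% ± 0.116 (SD, n = 5) in SG and 1.39% ± 0.0933 (SD, n = 2) in relapse libraries. The lowest of the 12 libraries was at 1.26% and the highest, SG 2, at 1.63%. The group means differed by less than the SD within the sham and SG groups. Without Hdac4, the most abundant host, the shares were 1.16% ± 0.105 in sham, 1.16% ± 0.0427 in SG and 1.11% ± 0.0856 in relapse libraries, and the SG libraries ran from 1.099% to 1.209%. A library detected 31 to 48 of the 74 hosts and 50 to 102 of the 412 circRNAs.

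**Figure D1:**
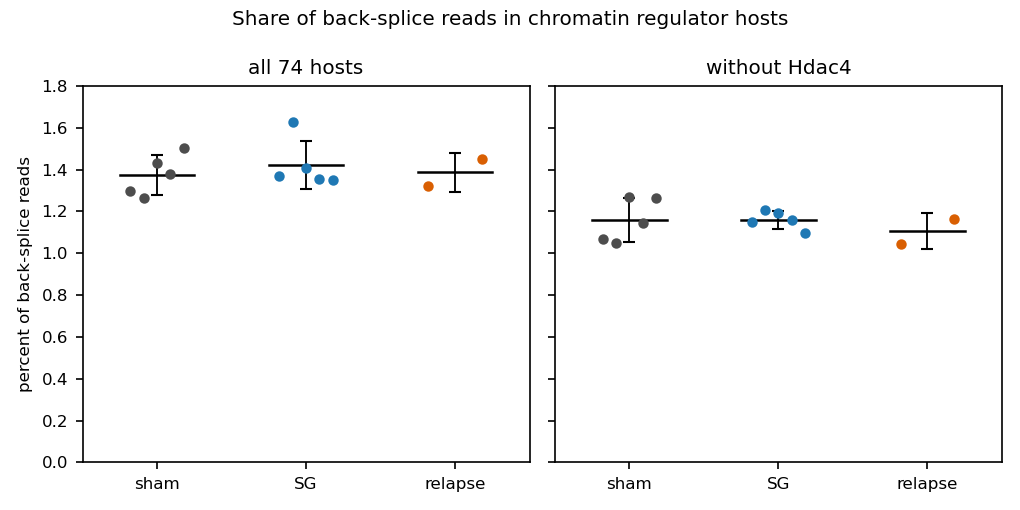
Each point is the percent of a library's back-splice reads that fell in chromatin regulator hosts (vertical axis), by group (sham and SG 5 libraries, relapse 2), with the group mean and SD. The left panel holds all 74 hosts and the right panel leaves out Hdac4, where the sham, SG and relapse means were 1.16%, 1.16% and 1.11%.

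The reads were concentrated in few genes. Hdac4, Ash1l and Kdm5a held 46.4% of them and the 12 most abundant hosts 74.6%. At the other end, 30 hosts had under 10 reads over all libraries, 7 had 1 read and 12 were read in 1 library only, while 12 hosts were read in all 12 libraries. Hdac4 ranked 42, Ash1l 64 and Kdm5a 66 among all 6501 hosts by reads, and the next member, Chd7, ranked 267.

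Hdac4, a class IIa histone deacetylase that moves between cytoplasm and nucleus under the control of hormone-dependent kinases, was the most abundant host with 702 reads. Sham libraries 1 to 5 were at 2317, 2146, 1614, 2357 and 2371 RPM. SG libraries 1 to 5 were at 2221, 4176, 2157, 1999 and 2500 RPM, and the relapse libraries at 2761 and 2874 RPM. The library SG 2 was far above every other one, sham and SG overlapped, and both relapse libraries lay above all 5 sham libraries and between the SG libraries. Nearly all of these reads came from 1 circle: circRNA2295, made of exon 2 alone (chr9:99266784-99267021 in Rnor_6.0, minus strand, 238 bases), held 97.3% of them. Another 8 circRNAs of Hdac4 shared the rest. This 1-exon circle was at 2120 ± 302 RPM (SD, n = 5) in sham, 2518 ± 848 RPM (SD, n = 5) in SG and 2791 ± 42.1 RPM (SD, n = 2) in relapse libraries.

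Hdac2, a class I deacetylase of several nuclear corepressor complexes, gave 107 reads, of which 99.1% were circRNA995 (exons 6 to 8, chr20:43092421-43093954). Its levels were 387 ± 172 RPM in sham, 350.3 ± 242 RPM in SG and 378 ± 78.3 RPM in relapse libraries, and the groups overlapped. Of the 11 deacetylases listed, 5 had reads (828 reads in all), and Hdac8, Hdac9 and Hdac7 had 12, 6 and 1.

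Ash1l, a methyltransferase of the trithorax group that counteracts Polycomb silencing, held 580 reads. Sham libraries 1 to 5 were at 2284, 1596, 2498, 1855 and 2185 RPM. SG libraries were at 2268, 2162, 1834, 2457 and 1883 RPM and relapse libraries at 1949 and 1558 RPM. The 3 groups overlapped, with the lowest value in the library relapse 2. In contrast to Hdac4, these reads were spread over 26 circRNAs. The main one, circRNA1881 (exons 4 and 5, chr2:188301024-188309036, plus strand), held 57.6%. The position at which circRNA1881 ended was shared by 5 circRNAs, and these held 67.9% of the reads of Ash1l.

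The share of Ash1l reads in circRNA1881 was 61.8% ± 9.04 (SD, n = 5) in sham, 57.4% ± 7.13 (SD, n = 5) in SG and 50.7% ± 8.81 (SD, n = 2) in relapse libraries, and the groups overlapped. The circle itself was at 1266 ± 147 RPM in sham, 1219 ± 235 RPM in SG and 876 ± 14.3 RPM in relapse libraries, and both relapse libraries lay below every other library.

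Kdm5a, a demethylase that removes the methyl marks of active promoters, held 561 reads. Levels in sham libraries 1 to 5 were 1357, 1816, 1718, 2056 and 2464 RPM. SG libraries were at 2410.0, 1523, 2912, 2294 and 1644 RPM and relapse libraries at 1895 and 1907 RPM. The groups overlapped. Kdm5a differed from both other leading hosts in having 2 main circles from separate exons: circRNA1548 (exons 11 and 12, chr4:152921914-152925673) with 267 reads and circRNA1549 (exons 17 and 18, chr4:152939744-152941737) with 229.

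The balance of this pair was measured as the share of circRNA1548 in their sum. It was 59.5% ± 5.95 (SD, n = 5) in sham, from 52.9% to 68.6%, and 47.6% ± 10.8 (SD, n = 5) in SG, from 29.3% in the library SG 5 to 56.7% in SG 2. In the relapse libraries it was 50% and 62.5%. The sham and SG ranges overlapped, and no test was made of this share. circRNA1549 alone was at 984 ± 235 RPM in SG against 658 ± 172 RPM in sham, higher than the sham mean in 4 of 5 SG libraries (log2 fold change 0.60, SE 0.34, Benjamini-Hochberg adjusted p = 0.996 with edgeR's quasi-likelihood test). circRNA1548 was at 937 ± 393 RPM in SG and 984 ± 280 RPM in sham (log2 fold change -0.06, SE 0.34).

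**Figure D2:**
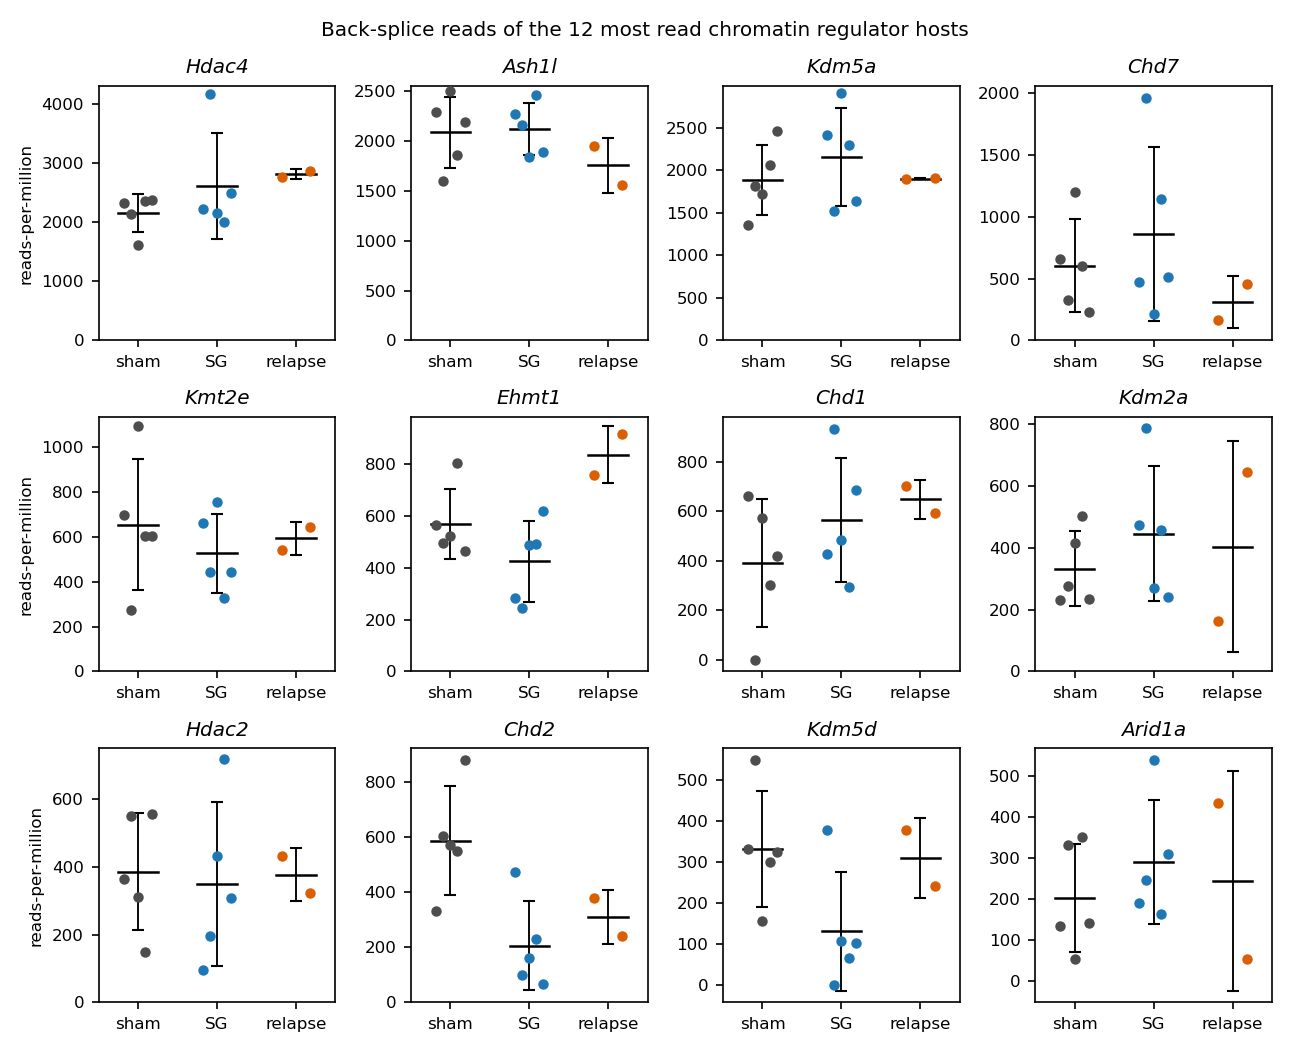
Each panel plots 1 of the 12 most abundant chromatin regulator hosts, with RPM on a linear vertical axis whose range differs between panels; points are libraries (sham 5, SG 5, relapse 2) and bars the mean and SD. In the Hdac4 panel the library SG 2 stands at 4176 RPM, and in the Chd2 panel 4 of the 5 SG libraries lie below all sham libraries.

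Chd7, a remodelling ATPase needed for neural crest development, held 190 reads, 94.7% of them in circRNA1250 (exons 3 to 6, chr5:21884148-21895382). Sham libraries 1 to 5 were at 662, 330.1, 1197, 602 and 232 RPM, SG libraries at 473, 1965, 216, 1147 and 514 RPM and relapse libraries at 162 and 457 RPM. Within both sham and SG the highest library was several times the lowest, and the library SG 2, the highest for Hdac4, was also the highest for Chd7. Both hosts' levels in SG 2 are part of every SG mean given here.

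Kmt2e, a protein of the trithorax group with a SET domain of doubtful enzymatic activity, held 166 reads. Its main circle, circRNA1434 (exons 2 to 5, chr4:8223841-8239403), had 76 of them, and together with circRNA4539, a circle with the same start whose junction was written in 2 entries, it held 77.7%. It was at 654 ± 293 RPM in sham, 526 ± 176 RPM in SG and 593 ± 73.1 RPM in relapse libraries. Chd1, a remodeller of transcribed genes, gave 147 reads and 2 main circles from separate exons, circRNA1974 (exons 2 to 4, chr1:57709953-57712920) with 94 reads and circRNA1975 (exons 28 to 30) with 46. It was at 391 ± 259, 565 ± 250 and 647 ± 79.8 RPM in the sham, SG and relapse groups, with 0 reads in the library sham 2. Kdm2a, a demethylase that binds unmethylated CpG islands, gave 114 reads, 54.4% of them in circRNA2137 (exons 19 and 20, chr1:219570016-219571238), and was at 331 ± 121.5, 445 ± 218 and 403.5 ± 341 RPM. Arid1a, a DNA-binding subunit of SWI/SNF, gave 64, of which 84.4% lay in circRNA1377 (exons 2 to 4, chr5:151944770-151947717), and was at 201 ± 132, 289 ± 150.5 and 243 ± 268 RPM. The groups overlapped for each of these 4 hosts.

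Ehmt1, which pairs with Ehmt2 in the enzyme that methylates histones of silent chromatin, was the most divided of the 12 leading hosts. Its 163 reads lay in 19 circRNAs, and the most abundant of them, circRNA1602 (exons 16 to 18, chr3:1988751-1998592), held 25.8%. Sham libraries 1 to 5 were at 563, 495, 521, 802 and 465 RPM, SG libraries at 284, 246, 485, 492 and 616 RPM and relapse libraries at 758 and 913 RPM. Both relapse libraries lay above all SG libraries, while sham and SG overlapped and sham 4 lay within the relapse values. Ehmt2 gave 27 reads.

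**Figure D3:**
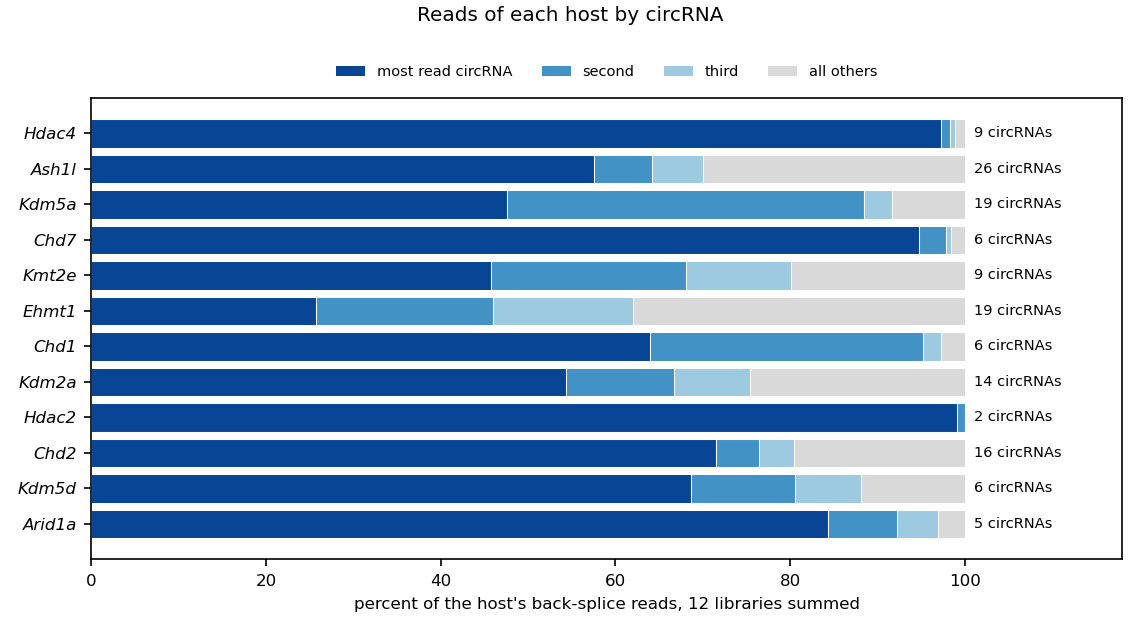
Stacked bars give the percent of each host's back-splice reads (horizontal axis, 12 libraries summed) held by its 3 most abundant circRNAs and by all others, for the 12 most abundant hosts. Hdac2, Hdac4 and Chd7 were almost entirely 1 circle (99.1%, 97.3% and 94.7%), while the main circle of Ehmt1 held 25.8%.

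Over all 74 hosts, 251 of the 412 circRNA entries shared their start or their end with another entry of the same host, a few of them as the same junction written in 2 entries. Exonic circles held 96.9% of the member reads, against 93.1% in the other 6427 hosts, and the rest were intronic. Of the exonic reads 20.2% came from circles of 1 exon, against 9.44% in other hosts, and circRNA2295 of Hdac4 supplied most of the member share. Circles of 5 or more exons held 9.98% against 16.4%. The median circle had 3 exons in both sets and spanned 5141 bases of the genome against 5598.5. Exon 2 was the first exon of 11.4% of member circRNAs with listed exons, against 22.3% elsewhere. These are descriptions of the table with no test, and 64.1% of member circRNAs, against 61.6% of the others, were seen in 1 library only.

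By role, 14 of 22 listed methyltransferases had reads, summing to 4236 ± 506 RPM in sham, 4160 ± 267 RPM in SG and 3937 ± 174 RPM in relapse libraries. Demethylases, 16 of 18 with reads, summed to 3261 ± 609, 3338 ± 650 and 3072 ± 670 RPM. Deacetylases summed to 2635 ± 382, 3055 ± 942 and 3195 ± 1.83 RPM in the same order. The deacetylase sum is mostly Hdac4, and in SG 2 it reached 4717 RPM.

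Remodellers outside SWI/SNF (14 of 17 with reads) summed to 1948 ± 568 RPM in sham, 2188 ± 993 RPM in SG and 1981 ± 352 RPM in relapse libraries. SWI/SNF subunits (11 of 14) summed to 984 ± 314, 918 ± 450 and 1228 ± 254 RPM. Acetyltransferases (5 of 8) summed to 243 ± 132, 166 ± 119.9 and 134 ± 190 RPM, from only 54 reads. The 8 of 12 other bromodomain and Arid proteins held 88 reads, and Chd1l, a remodeller in none of these lists, held 34. The ranges of the 3 groups overlapped in all 7 roles except that both relapse libraries exceeded all sham libraries for the deacetylases. This repeats the values of Hdac4, and 10% of all tested hosts were separated in relapse against sham.

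**Figure D4:**
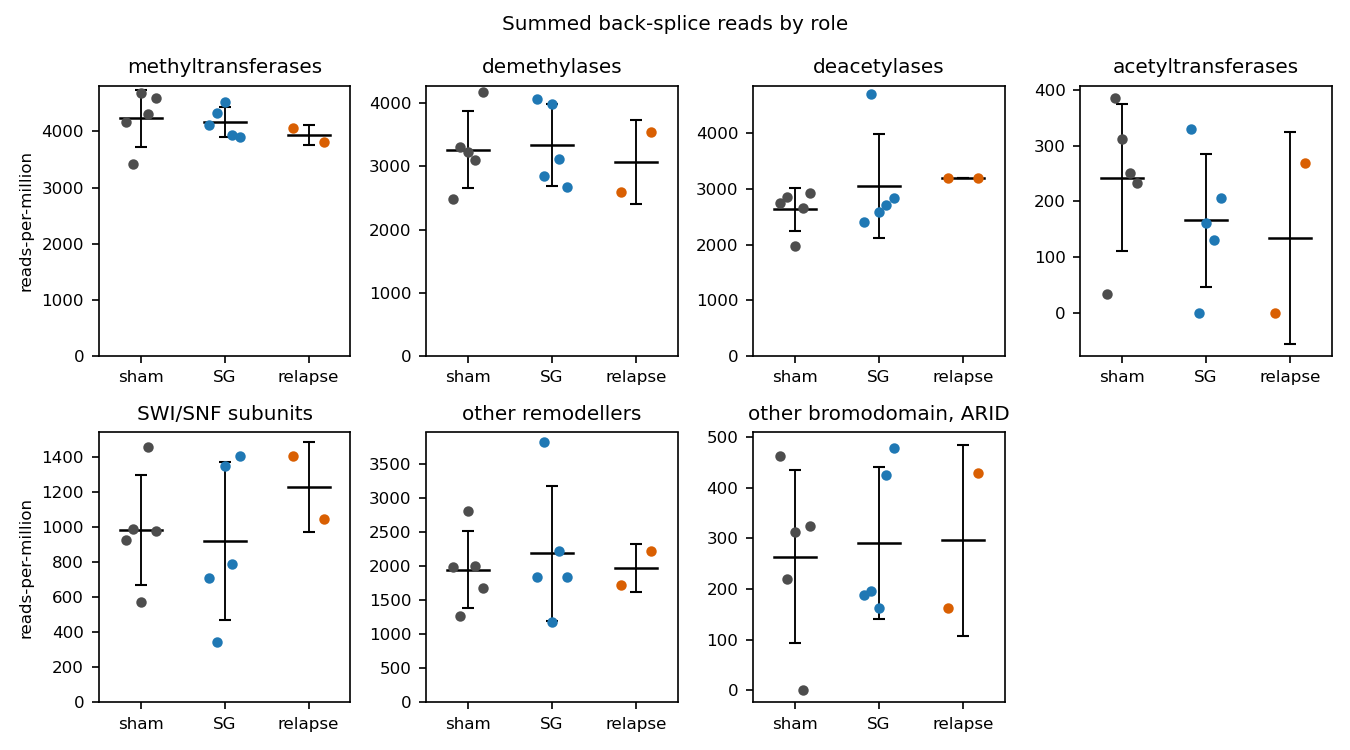
Each panel sums the RPM of 1 role's hosts per library (linear vertical axis, range differing between panels), with points for libraries and bars for the group mean and SD. Methyltransferases, demethylases and deacetylases hold most of the reads, and the SG library at 4717 RPM in the deacetylase panel is SG 2.

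The design implies 3 comparisons: SG against sham, which asks what differed after the operation, relapse against SG, which sets the rats labelled as relapsed against the others sampled after SG, and relapse against sham. Each group enters a pair of these, so they are not independent. Of the 74 hosts 19 passed the filter on low counts and were tested among 1368 hosts, and these 19 held 83.0% of the member reads. The 55 others did not pass this filter, which asks for a minimum count in enough libraries and not for a total alone, so that Brd1 with 42 reads was left out and Chd6 with 30 was tested.

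No chromatin regulator host passed a false discovery rate (FDR) of 0.05 in any comparison with edgeR's quasi-likelihood test, where 0.146% of all tested hosts passed in SG against sham, 0.146% in relapse against SG and 0.0731% in relapse against sham. At an unadjusted p under 0.05, Chd2 alone passed in SG against sham (1 of 19, against 3.29% of all hosts), and no member in relapse against SG (4.09% of all) or relapse against sham (5.56% of all). DESeq2 gave 1, 0 and 0 members at that level in the 3 comparisons, against 3.73%, 3.95% and 5.34% of all hosts. With limma-voom there were 3, 0 and 0, against 5.92%, 4.9% and 7.16%, and neither tool called a member at an FDR of 0.05. The smallest Benjamini-Hochberg adjusted p of a member with edgeR was 0.962, 0.9997 and 0.856 in the 3 comparisons.

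In SG against sham, 12 members had a log2 fold change above 0 and 7 below, with a median of 0.20 against 0.03 over all hosts. In relapse against SG 9 were above and 10 below (median -0.05 against -0.07), and in relapse against sham 8 above and 11 below (median -0.08 against -0.06). Scaling by each library's ratio of count to the authors' normalised value, in place of back-splice reads, moved the median of all hosts by 0.16, 0.15 and 0.32 in the 3 comparisons. The members above and below 0 were then 13 and 6, 11 and 8, and 12 and 7, with medians of 0.32, 0.09 and 0.20 against 0.18, 0.08 and 0.26 over all hosts.

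Chd2, a remodeller of the same family as Chd1 that acts at transcribed genes, had the smallest p in SG against sham. It was at 331, 605, 573, 552 and 883 RPM in sham libraries 1 to 5, at 473, 98.3, 162, 229 and 68.5 RPM in SG libraries and at 379 and 242 RPM in relapse libraries. All SG libraries but SG 1 lay below every sham library, and SG 1 lay above the lowest sham library, so the groups overlapped. The mean was 206 ± 161 RPM in SG (24 reads) and 589 ± 197 RPM in sham (62 reads), with all 5 SG libraries below the sham mean. The log2 fold change was -1.48 (SE 0.56, edgeR adjusted p = 0.962), so Chd2 did not pass the threshold. Another 15 reads of Chd2, 10 of them in SG libraries, stood under an identifier that the rule did not join, and with them the log2 fold change was -1.13 (adjusted p = 0.996).

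Most Chd2 reads came from circRNA2034 (exons 3 to 5, chr1:134843161-134848903, minus strand). Its junction was written in 2 entries, and summed over both it was at 232, 385, 312, 401 and 837 RPM in sham libraries 1 to 5, at 284, 0, 108, 197 and 137 RPM in SG libraries and at 379 and 215 RPM in relapse libraries. The SG library at 284 RPM lay above the lowest sham library and the other 4 lay below all of them. The log2 fold change in SG against sham was -1.47 (SE 0.68, edgeR adjusted p = 0.996).

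Kdm5d, the Y-linked relative of Kdm5a and Kdm5c, had the next smallest p in SG against sham. Sham libraries 1 to 5 were at 331, 550.2, 156, 301 and 325 RPM, SG libraries at 378, 0, 108, 65.5 and 103 RPM and relapse libraries at 379 and 242 RPM. All SG libraries but SG 1 lay below every sham library, and SG 1 lay among the higher ones. The log2 fold change was -1.33 (SE 0.77, edgeR adjusted p = 0.994). All chromosome Y hosts together gave 3 to 27 reads per library, with the 3 in SG 2, and the part of these low counts in the result was not tested.

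Chd6, a remodeller linked to the response to oxidative stress, had 2 reads in sham (both in sham 3), 13 in SG (3, 6, 0, 3 and 1 in libraries 1 to 5) and 15 in relapse (0 and 15). It passed the filter only through libraries of the groups where it is high, SG 2 and relapse 2. Neither its fold over sham nor its adjusted p can therefore support a difference. The edgeR test gave an adjusted p = 0.994 for SG against sham and 0.856 for relapse against sham. Without the library relapse 2, which held all 15 relapse reads, the fitted log2 fold change of relapse against sham turned from 3.17 to -2.17.

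Hdac4 and Chd7 had log2 fold changes in SG against sham of 0.27 (SE 0.25) and 0.52 (SE 0.50). Without any 1 library in turn, the Hdac4 value ranged from 0.05 to 0.33 and the Chd7 value from 0.03 to 0.88. No member's sham and SG libraries were fully separated, against 0.95% of all hosts.

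In relapse against SG, Chd7 had the smallest p, with a log2 fold change of -1.39 (SE 0.72, edgeR adjusted p = 0.9997), 309.5 ± 208 RPM in relapse and 863 ± 705 RPM in SG libraries. The library relapse 1 lay below all SG libraries and relapse 2 lay among them, and the log2 fold change was -2.52 without relapse 2 (adjusted p = 0.356) and -0.79 without relapse 1. Ehmt1 followed with 0.93 (SE 0.53, edgeR adjusted p = 0.9997), 836 ± 110 RPM in relapse and 424 ± 156 RPM in SG libraries. It was the only member whose relapse and SG libraries did not overlap (1 of 19, against 9.72% of all hosts). Kdm5d was at 310.3 ± 97.0 RPM in relapse against 131 ± 145 RPM in SG libraries (log2 fold change 1.17, SE 0.96).

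Kdm1a, the amine oxidase demethylase of corepressor complexes, was at 53.7 ± 76.0 RPM in relapse (4 reads, all in relapse 2) against 191 ± 84.6 RPM in SG libraries (log2 fold change -1.54, SE 1.38). Without relapse 1 the value was -0.70, and without relapse 2 no relapse read was left. No relapse library reached the filter's minimum count, so Kdm1a was tested only through sham and SG libraries. Its fold therefore supports no difference. Ash1l had a log2 fold change of -0.33 (SE 0.34). None of these passed the threshold. The hepatocyte marker sum was lower in both relapse libraries than in any sham or SG library, and its part in these differences was not tested.

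Smarcc2, a scaffold subunit of SWI/SNF, was at 298, 110.0, 312, 451 and 325 RPM in sham libraries 1 to 5, at 0, 0, 431, 0 and 240 RPM in SG libraries and at 108 and 26.9 RPM in relapse libraries. In SG, 3 libraries had no read, and both relapse libraries lay below all sham libraries. With 3 relapse reads against 33 in sham, the edgeR test gave an adjusted p = 0.928. No relapse library reached the filter's minimum count, so Smarcc2 was tested only through libraries of the other groups. Against the 15 reads of SG the log2 fold change was -1.08 (SE 1.41). This value turned to 0.09 with limma-voom and to 0.89 with the replicate number as a block.

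Of the 51 Smarcc2 reads 45 lay in circRNA10574 (chr7:2888643-2889413, 4 exons), an entry named by identifier. It had 30 reads in sham (9, 0, 5, 9 and 7 in libraries 1 to 5), 15 in SG (8 in SG 3 and 7 in SG 5) and 0 in relapse libraries. With sham 2 and 3 SG libraries also at 0, the relapse libraries overlapped both groups. The junction passed the filter only through sham and SG libraries, so no fold is given for relapse. The edgeR adjusted p of the junction was 0.706 against sham and 0.9995 against SG. Entries named by identifier seldom held a single read (2.27% of their values above 0, against 38.1% for entries named by symbol), and what part this has in the zeros of circRNA10574 was not tested.

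In relapse against sham, Hdac4 was higher and Smarcc2 lower in both relapse libraries than in all sham libraries (2 of 19 members without overlap, against 10% of all hosts). Smarcc2 was tested only through sham and SG libraries, so its separation supports no difference. Hdac4 was at 2817 ± 80.1 RPM in relapse against 2161 ± 319 RPM in sham libraries (log2 fold change 0.36, SE 0.32, edgeR adjusted p = 0.983). Chd2, Chd7 and Kdm1a had log2 fold changes of -0.97 (SE 0.73), -0.86 (SE 0.71) and -1.51 (SE 1.38). Kdm1a was again tested only through sham and SG libraries, so its value supports no difference. Without relapse 1 the Chd7 value was -0.26 and the Kdm1a value -0.65, and without relapse 2 the Chd7 value was -1.99. None passed the threshold.

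**Figure D5:**
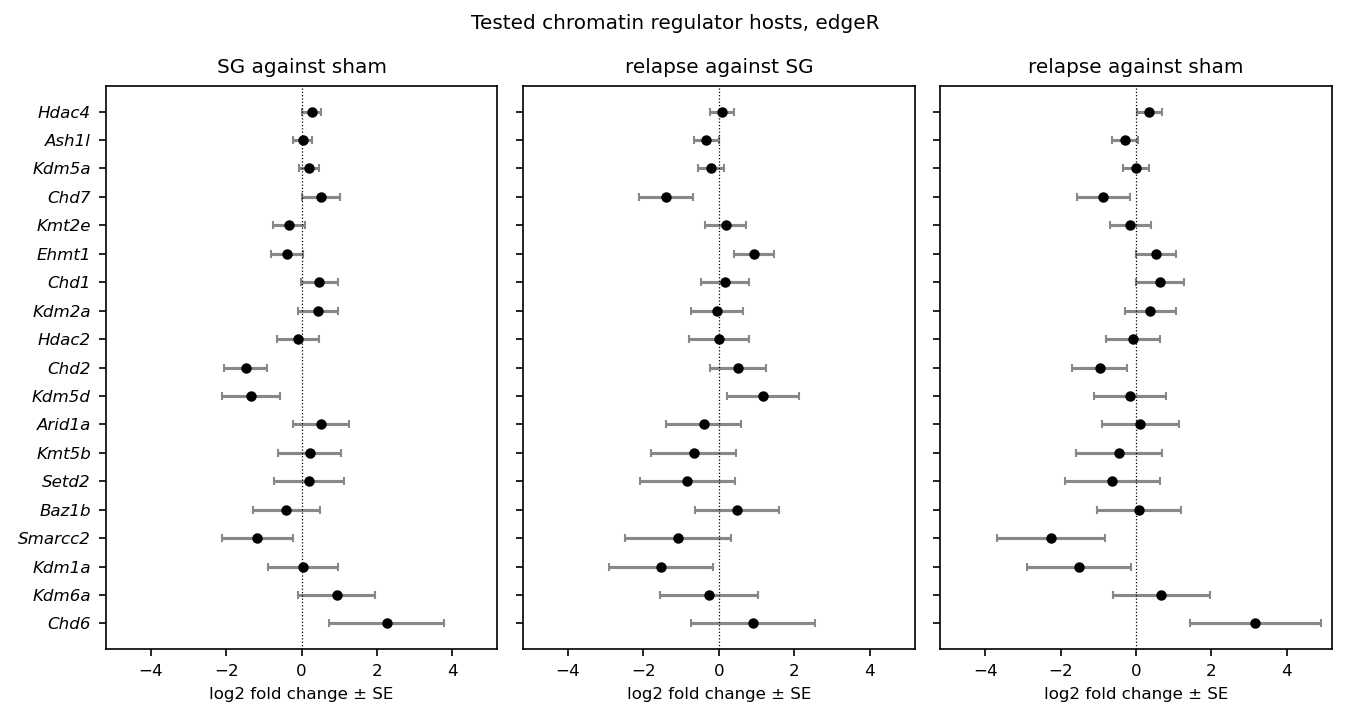
Points are the log2 fold changes of the 19 tested chromatin regulator hosts in the 3 comparisons (edgeR fit of all 12 libraries), with bars of 1 SE on either side and a dotted line at 0; hosts are ordered by reads, most abundant on top. Bars widen from Hdac4 (SE 0.25 in SG against sham) to Chd6 (SE 1.53), and none of the values passed an FDR of 0.05. Chd6 passed the filter only through SG 2 and relapse 2, so its points over sham support no difference. Several hosts, Kdm1a and Smarcc2 among them, passed only through sham and SG libraries, so their relapse points support none either.

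Single junctions were tested as well, 20 of chromatin regulators among 1519. None of all 1519 passed an FDR of 0.05 with edgeR (0% in each comparison) or DESeq2, and limma-voom called 1 junction, not of a member, in relapse against sham. At an unadjusted p under 0.05, 2 member junctions passed in SG against sham (circRNA2034 of Chd2 and circRNA1885 of Ash1l, against 3.88% of all junctions), 2 in relapse against SG (circRNA1885 and circRNA10574, 4.81% of all) and 1 in relapse against sham (circRNA10574, 5.79% of all). DESeq2 gave 1, 0 and 1 member junctions at that level, against 4.02%, 4.74% and 5.46% of all junctions. With limma-voom there were 2, 1 and 1, against 6.85%, 6.65% and 7.5%, and neither tool called a member at an FDR of 0.05.

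circRNA1885 of Ash1l (exons 8 to 10, chr2:188337239-188339750) had 6 reads in sham 3, 2 in sham 4, 8 in relapse 1 and 0 in all other libraries. It passed the filter only through sham 3 and relapse 1, libraries of the groups where it is high, so no fold against SG is given. The adjusted p in edgeR's test was 0.996 for SG against sham and 0.981 for relapse against SG. All 16 reads thus came from 3 of the 12 libraries.

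A pair of circles of abundant hosts separated the relapse libraries from another group. circRNA2295 of Hdac4 was higher in relapse than in all sham libraries (log2 fold change 0.41, SE 0.32, adjusted p = 0.933), and circRNA1881 of Ash1l was lower in relapse than in all sham libraries (-0.50, SE 0.39, adjusted p = 0.933) and all SG libraries (-0.48, SE 0.39, adjusted p = 0.9995). Between relapse and SG libraries, circRNA1602 of Ehmt1 (310.1 ± 20.7 against 66.3 ± 77.5 RPM) and circRNA1377 of Arid1a (108 ± 76.8 against 262 ± 158 RPM) did not overlap either. Such separation was seen in 9.22% of all junctions in relapse against SG and 11.5% in relapse against sham, and in 0.987% in SG against sham, where no member junction showed it. No SG library reached the filter's minimum count for circRNA1602 and no relapse library did for circRNA1377, so their separation supports no difference. For circRNA1377, relapse 1 with 3 reads lay just below SG 4, a deeper library with 5 reads. circRNA1974 of Chd1 was at 486 ± 78.9 RPM in relapse and 224 ± 191 RPM in sham libraries (log2 fold change 1.06, SE 0.80), with overlap.

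circRNA18680 of Kdm4a, a demethylase of heterochromatin, was too sparse to be tested over the 12 libraries and was picked out after its values were seen. Summed over both entries of its junction (exons 5 to 7, chr5:136998464-137000550), it had 6, 4 and 13 reads in sham 1, sham 4 and sham 5 and 0 in the other 9 libraries. Because it was picked for these values, no fold is given. With 2 of the 5 sham libraries also at 0, the groups overlapped.

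Of 106 other chromatin regulators outside the 13 families, 72 had reads (7481 in all) and 28 were tested. None passed an FDR of 0.05 with edgeR, DESeq2 or limma-voom in the 3 comparisons. With edgeR, at an unadjusted p under 0.05 there was 0 in SG against sham, 1 in relapse against SG (Brwd1) and 2 in relapse against sham (Brwd1 and Gatad2b), beside the 3.29%, 4.09% and 5.56% of all hosts; DESeq2 gave 0, 1 and 2 and limma-voom 0, 0 and 1. Their median log2 fold changes were -0.12, -0.10 and -0.03, against 0.03, -0.07 and -0.06 over all hosts, with 13, 9 and 13 of the 28 above 0 against 704, 632 and 638 of the 1368. The 3 with the most reads were Cdyl, a chromodomain corepressor (11330 ± 2245 RPM, SD, n = 12), Rere, a corepressor of the atrophin family (4406 ± 640 RPM), and Crebbp, an acetyltransferase (1304 ± 410.1 RPM). Cdyl alone thus exceeded Hdac4, Ash1l and Kdm5a, which averaged 2458, 2044 and 2000 RPM.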

How the data were processed

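Per the labels' protocols, liver total RNA was depleted of ribosomal RNA, treated with RNase R to digest linear RNA, and made into strand-marked (dUTP) libraries that were read from both ends on a HiSeq 4000 instrument. The submitters' processing notes name cutadapt 1.9, FastQC, TopHat2 2.0.10 and the build Rnor_6.0; the caller of back-splice junctions is not given in the sources used here. The table deposited by the authors holds raw back-splice read counts and a normalised signal named SRPBM, per the file headers. Within a library SRPBM was a constant multiple of the count, so it served only as an alternative scaling.

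Starts of entries named by symbol were 1 lower than those of most matching entries named by identifier and were put on a count from 1. The same shift was made for 750 of 2219 exonic entries named by identifier, whose start equalled the end of the intron before them. There were 808 junctions written in 2 entries, 20 of them of member hosts, and these were summed for junction tests. In those 20 no library had reads in both entries. For hosts, entries named by identifier were joined to a symbol through a shared transcript (1754 of 2868). Intergenic circRNAs (10.2% of reads) stayed in the library totals and out of the host tests.

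Counts were tested with edgeR 4.0.16 in R 4.3.3 (TMM, 1 mean for each of the 3 groups, quasi-likelihood F-test, Benjamini-Hochberg adjustment over all tested features) after filterByExpr (minimum count 5, minimum total 15). The script was tested on simulated data. The alternatives were DESeq2 1.42.0, limma-voom (limma 3.58.1), other scalings, other filters, other joins of identifiers, fits of 2 groups, a replicate block and each library left out.

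The text names the 12 hosts and 10 junctions of the members with the most reads, and in each comparison the 6 hosts and 3 junctions of the members with the smallest p; other genes are named where the text says so. Members, lists and rules were chosen with earlier results of these data known. The floors cover counting error only.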

Additional observations from a re-analysis of the deposited data

Results flagged for a closer look

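In the 5-library groups, the highest or lowest library was compared with the rest of its group for 15 hosts and for the member share, 32 groups in all. In 5 of them (15.6%) the highest library stood apart, by a gap to the nearest library of over 0.71 of the group's range; chance flags about 1 in 20 groups. Chd6 reached 104 RPM in sham 3 with 2 reads, all other sham libraries being at 0. Ehmt1 reached 802 RPM in sham 4. Hdac4 reached 4176 RPM in SG 2, and the share of back-splice reads in chromatin regulator hosts reached 1.63% in the same library. Kdm5d reached 378 RPM in SG 1.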

How the results depend on the processing

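The sparse counts limit these results: the median SE of a member's log2 fold change was 0.56 in SG against sham, 0.79 in relapse against SG and 0.73 in relapse against sham, and the relapse group had 2 libraries. No member host or junction was called in the main analysis or under any alternative, each left-out library included; the smallest adjusted p of a member under any of them was 0.356 for a host and 0.390 for a junction. The main counts of all hosts called were 2, 2 and 1 in SG against sham, relapse against SG and relapse against sham, and 0 junctions in each.

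In SG against sham the count of hosts fell to 1 without the filter and with entries named by symbol alone, and to 0 with DESeq2, SRPBM scaling, a minimum count of 10, names as written and a fit of only 2 groups. In relapse against SG it fell to 1 with SRPBM scaling and with identifiers joined by gene record, an alternative added after seeing the data, and to 0 with a minimum count of 10, symbol entries alone, names as written and 2 groups. In relapse against sham it was 3 with limma-voom and without the filter, 2 with RLE size factors and with identifiers joined by gene record, and 0 with 2 groups. Junctions called were 2 in relapse against SG and 1 in relapse against sham without the filter, and 1 in relapse against sham with limma-voom. The cause was not tested. The share of reads in member hosts was 1.15% without Hdac4 and 1.40% with it.

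With each library left out in turn, hosts called ranged from 0 to 3, 0 to 4 and 0 to 4 in the 3 comparisons and junctions from 0 to 2, 0 to 9 and 0 to 8. The member share ranged from 1.38% to 1.41%. The Chd6 log2 fold change in relapse against sham ranged from -2.17, reversed, without relapse 2 to 5.40 without sham 3. Each of these fits left a group without a Chd6 read, so neither value measures a size. The log2 fold change of Smarcc2 in relapse against SG reversed to 0.08549 with limma-voom. Of the named values, 296 of 298 log2 fold changes under alternatives and 315 of 316 with a library left out kept their direction and their side of the threshold.

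Libraries with the same replicate number did not deviate together (correlations -0.07 to 0.03). With sparse counts and few libraries per group, this check cannot settle whether the numbers pair libraries. With the replicate block 0 hosts were called in each comparison and 1, 2 and 1 junctions, none of them members, and the Smarcc2 value in relapse against SG reversed to 0.89.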

Other observations

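Kmt2c, a large methyltransferase of enhancers, falls outside the naming rule because the table writes it under a clone name and under an Ensembl identifier. Its 18 circRNA entries held 418 reads (1471 RPM on average), 228 under the clone name and 190 under the identifier. The counts under both names were close in every library, as with 28 and 24 in sham 1 and 23 and 21 in relapse 2. Whether both names count the same reads was not tested, so the sum may be too high. The clone name alone held more reads than Chd7, the member with 190. Summed over both names, the reads were 52, 15, 18, 51 and 30 in sham libraries 1 to 5, 24, 26, 40, 59 and 33 in SG libraries and 26 and 44 in relapse libraries.

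The rule also left out 25 entries (225 reads) that belong to 14 member hosts by their gene record but not by a shared transcript. Arid1b, a DNA-binding subunit of SWI/SNF, held 108 of them, against 28 reads under the rule. Those 108 reads were 0, 6, 7, 9 and 0 in sham libraries 1 to 5, 0, 23, 9, 19 and 13 in SG libraries and 7 and 15 in relapse libraries.

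A few circles of 1 host differed by 3 bases or fewer at an end: circRNA17441 and circRNA4735 of Ehmt1 (6 and 33 reads) share a start and end 3 bases apart.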
